A study of Homo sapiens with 12 samples.

Results

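The 34 genes described here are 20 genes of glycolysis and lactate formation and 14 genes of the hypoxia response. They were measured by RNA sequencing in C4-2 cells, a single prostate cancer cell line that was derived from LNCaP and grows under castrate conditions. The members were found by symbol, and all 34 were present among the 56269 rows of the count table. Of these, 33 were among the 16115 genes that passed the filter on low counts. The exception was ADM, which encodes the vasodilator peptide adrenomedullin and had 2 to 15 counts per library, so it was not tested.

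Small interfering RNA (siRNA) against PXN, which encodes paxillin, an adaptor protein of focal adhesions, was combined with the androgen dihydrotestosterone (DHT). Cells were transfected for 48 h, kept without serum for 12 h, and then treated for 24 h. The groups were paxillin siRNA with 2.5 nM DHT, paxillin siRNA with ethanol vehicle, nonspecific siRNA with 2.5 nM DHT, and nonspecific siRNA with ethanol vehicle, with 3 libraries in each. The labels name no change of oxygen, so the hypoxia genes were read here under androgen and siRNA treatment alone. Since separate cultures are not stated for the replicates, p-values cover only the spread among these libraries, which may be technical.

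Glycolysis splits glucose into pyruvate, and its pace is set mainly at hexokinase, phosphofructokinase and pyruvate kinase. Lactate dehydrogenase turns pyruvate into lactate, while pyruvate dehydrogenase kinases keep pyruvate out of the mitochondrion. HIF-1α and HIF-2α are marked for destruction by the oxygen-dependent prolyl hydroxylases EGLN1 and EGLN3, and when stable they pair with ARNT and switch on many glycolytic genes through DNA elements with the core ACGTG. Androgen signalling is known to raise glucose use in prostate cancer cells.

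Library totals ran from 11944906 counts, in nonspecific vehicle replicate 1, to 32040465 counts. Levels are given as CPM, counts scaled to the effective size of the library. PXN stood at 9.35 to 16.7 CPM in the 6 paxillin siRNA libraries, against 121 to 151 CPM in the 6 nonspecific libraries. Every library therefore followed its siRNA label. PXN was not called between DHT and vehicle under either siRNA, so it does not check the treatment label. All 8 markers of prostate luminal cells were present in each library, among them KLK3 at 3110 to 8880 CPM. The 3 basal markers summed to at most 0.637 CPM and the 3 immune markers to at most 0.164 CPM, with CD3E at 0 counts throughout. COL1A1 (24.8 to 47.6 CPM), PDGFRB (0.826 to 1.81 CPM) and VWF (8.29 to 14.9 CPM) were detected. COL1A2, PECAM1 and CDH5 did not exceed 0.0871 CPM.

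The HIF core is printed for 5 members whose responses to DHT differed, read from the RefSeq promoters of build GRCh38.p14. ACGTG or its reverse complement CACGT occurred in the 250 bases before the start in 14 of the 32 members with a promoter in that set, and in 18.5% of all 35116 promoters. Only the first promoter listed for a member was used, while the share over all promoters counts every listed promoter. Each window of 29 bases holds the core nearest to the start, in capitals, read 5′ to 3′ on the strand of the gene. Where the capitals read CACGTG, cores on both strands overlap.
ANKRD37: cagtgtttgtgtACGTGcggccgtggcgg
HK2: aatgggcgtgcgCACGTcactgatccgga
BNIP3: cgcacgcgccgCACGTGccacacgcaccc
CA9: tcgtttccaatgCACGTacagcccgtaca
GAPDH: ctctgcggggtCACGTGtcgcagaggagc
These windows lie at chr4:185396686-185396714 (+ strand) for ANKRD37, chr2:74834067-74834095 (+ strand) for HK2 and chr10:131982040-131982068 (- strand) for BNIP3. Those of CA9 and GAPDH lie at chr9:35673898-35673926 and chr12:6535172-6535200, both on the + strand. The core began 143, 48, 133, 18 and 80 bases before the start in ANKRD37, HK2, BNIP3, CA9 and GAPDH. These distances are to the RefSeq start. For GAPDH the RefSeq sequence after the start was not found in a GENCODE 29 transcript, so its start is less certain than the others. The windows of ANKRD37, HK2, CA9 and GAPDH lie inside the GENCODE span of the gene, and that of BNIP3 lies outside it. DHT raised ANKRD37, HK2 and BNIP3, lowered CA9 and did not change GAPDH past the threshold. Of members that DHT raised under both siRNAs, 7 of 14 with a promoter held the core, against 2 of 4 that it lowered and 3 of 7 that passed the test under neither. The letters AGAACA or TGTTCT, a single repeat of the androgen response element, were found in 1 of the 32 windows, that of GPI, and in 12.4% of all promoters. Matching letters describe the sequence and do not show a bound site.

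Levels were compared between genes as CPM per exonic kilobase, with lengths from GENCODE 29. The order was led by GAPDH, with 1668 CPM per kilobase averaged over the 12 libraries, followed by ALDOA with 756, ENO1 with 512 and TPI1 with 495. LDHA averaged 303, PKM 260 and PGK1 236 CPM per kilobase. The regulators of phosphofructokinase were far lower, at 13.0 for PFKFB4, 6.74 for PFKFB3 and 5.50 for PFKFB2. HIF1A averaged 36.0 CPM per kilobase and EPAS1, the gene of HIF-2α, 0.39. CA9 averaged 0.960 and ADM, the lowest of the 34, averaged 0.101 CPM per kilobase. The 20 glycolytic genes together held 2.05 ± 0.161% of all counts in paxillin DHT, 1.94 ± 0.141% in paxillin vehicle, 2.21 ± 0.145% in nonspecific DHT and 2.07 ± 0.121% in nonspecific vehicle (SD, n = 3 each), and the groups overlapped under both siRNAs. Between libraries with the same replicate number, the share was higher with DHT in 3 of 3 pairs under paxillin siRNA, by 0.193, 0.059 and 0.081 percentage points, and in 2 of 3 pairs under nonspecific siRNA, where the differences were 0.375, 0.045 and -0.020.

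The first comparisons asked how DHT changed these genes under each siRNA. DHT raised a broad set of glycolytic genes, led by the hexokinases HK2 and HK1, the regulators PFKFB4 and PFKFB2, and PFKP, PGK1, LDHA and LDHB. Among hypoxia genes it raised ANKRD37, BNIP3, PDK1, PDK3 and P4HA1, while it lowered the carbonic anhydrases CA9 and CA12. GAPDH, PKM and GPI did not pass the test under either siRNA. A gene was called when edgeR's quasi-likelihood test gave an adjusted p below 0.05, after Benjamini-Hochberg adjustment over all 16115 genes. Under paxillin siRNA 17 of the 33 tested members rose and 4 fell, where 38% of all tested genes were called, 20.1% higher and 17.9% lower. Under nonspecific siRNA 18 rose and 6 fell, where 40.5% of all genes were called, 21.6% higher and 18.9% lower. Since the members were chosen with earlier results of these data known, these counts are descriptive. The median log2 fold change of the members was 0.29 under paxillin siRNA and 0.31 under nonspecific siRNA, beside medians over all genes of -0.008 and -0.009. Library values of DHT and vehicle did not overlap for 22 of 33 members under paxillin siRNA, beside 48.6% of all tested genes, and for 25 under nonspecific siRNA, beside 50.4%. With upper-quartile scaling in place of TMM, 15 members rose and 5 fell under paxillin siRNA, and 17 rose and 6 fell under nonspecific siRNA. ALDOC and ENO1 lost their call and EPAS1 gained one under paxillin siRNA, and VEGFA lost its call under nonspecific siRNA. Higher calls made up 36.5% of all called genes with that scaling, against 52.8% with TMM, under paxillin siRNA, and 41% against 53.3% under nonspecific siRNA.

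**Figure D1:**
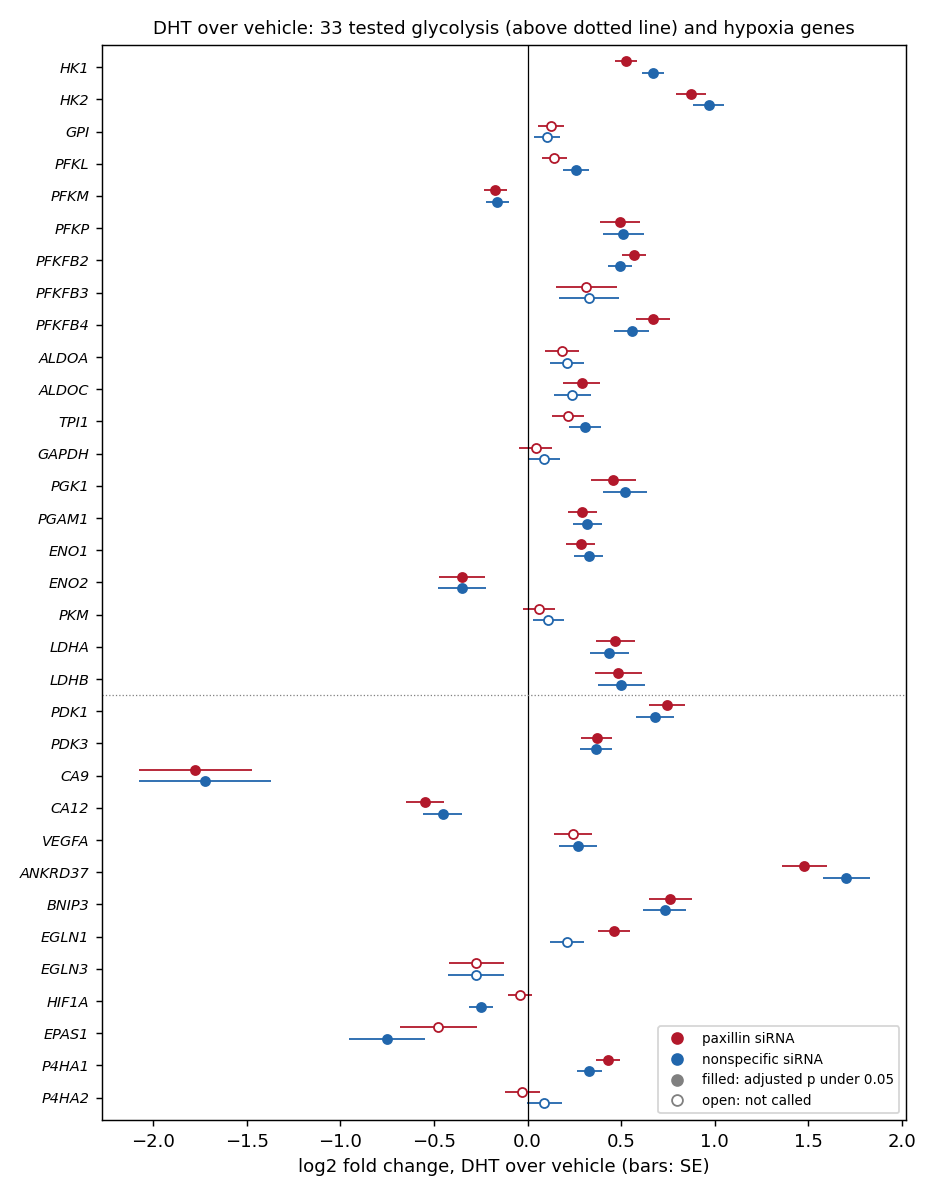
Log2 fold change of DHT over vehicle (x axis, bars show the SE) for the 33 tested members (rows, glycolysis above the dotted line), under paxillin siRNA (red) and nonspecific siRNA (blue), with filled points for adjusted p under 0.05. ANKRD37 lies farthest right, at 1.48 under paxillin siRNA and 1.70 under nonspecific siRNA, and CA9 farthest left, at -1.77 and -1.73.

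The hexokinases commit glucose to the pathway. HK2, the inducible isoform (chr2:74833981-74893359), had 188, 184 and 180.1 CPM with DHT and paxillin siRNA, against 93.7, 106 and 102 CPM with vehicle. With nonspecific siRNA it had 192, 188 and 182 CPM with DHT, against 81.0, 110.1 and 94.3 CPM with vehicle. All DHT libraries lay above all vehicle libraries, and the lowest vehicle value was in nonspecific vehicle replicate 1. HK2 rose 1.83-fold under paxillin siRNA (log2 0.87 ± 0.08 SE, adjusted p = 1.4e-07) and 1.96-fold under nonspecific siRNA (log2 0.97 ± 0.08, adjusted p = 4.1e-08). HK1, the widely expressed isoform bound to mitochondria (chr10:69269984-69401884), had 336, 337 and 329 CPM with DHT and paxillin siRNA, against 219.8, 233 and 243 CPM with vehicle. Under nonspecific siRNA its values were 334, 306 and 311 CPM with DHT, against 201, 195 and 201 CPM with vehicle. HK1 groups did not overlap under either siRNA, and it rose by log2 0.52 ± 0.06 under paxillin siRNA (adjusted p = 1.3e-06) and by 0.67 ± 0.06 under nonspecific siRNA (adjusted p = 6.4e-08). Per exonic kilobase, HK2 stood at 0.572 ± 0.00717 of HK1 in paxillin DHT against 0.449 ± 0.0201 in paxillin vehicle, and at 0.614 ± 0.0213 in nonspecific DHT against 0.497 ± 0.0848 in nonspecific vehicle (SD, n = 3 each). GPI, which makes fructose 6-phosphate, had log2 fold changes of 0.12 and 0.10 under paxillin and nonspecific siRNA, which did not pass the test (adjusted p = 0.17 and 0.25).

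Phosphofructokinase carries out the committed step, and its 3 genes went different ways. PFKP, the platelet form, had 292, 278 and 231 CPM with DHT and paxillin siRNA, against 184, 206 and 179 CPM with vehicle. Its nonspecific siRNA libraries held 305, 272 and 217 CPM with DHT, against 194, 196 and 168 CPM with vehicle. The groups did not overlap, and replicate 3 was the lowest in all 4 of them. PFKP rose by log2 0.49 ± 0.11 under paxillin siRNA and 0.51 ± 0.11 under nonspecific siRNA (adjusted p = 0.0015 and 0.0011). PFKL, the liver form, rose under nonspecific siRNA by 0.26 ± 0.07 (adjusted p = 0.0052) and had a log2 fold change of 0.14 under paxillin siRNA (adjusted p = 0.11). PFKM, the muscle form, fell by 0.17 ± 0.06 under paxillin siRNA and by 0.16 ± 0.06 under nonspecific siRNA (adjusted p = 0.037 and 0.049). Per exonic kilobase, PFKP made up 49.5 ± 1.95% of the 3 genes in paxillin DHT against 40.1 ± 1.58% in paxillin vehicle, and 47.7 ± 3.06% in nonspecific DHT against 39.0 ± 2.01% in nonspecific vehicle. PFKM held 30.9 ± 0.906% in paxillin DHT against 39.7 ± 1.67% in paxillin vehicle, and 32.5 ± 2.57% in nonspecific DHT against 41.8 ± 0.911% in nonspecific vehicle (SD, n = 3 each).

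The PFKFB genes encode the bifunctional enzymes that make and break fructose 2,6-bisphosphate, the activator of phosphofructokinase. PFKFB4 had 94.1, 106 and 102 CPM with DHT and paxillin siRNA, against 55.3, 72.4 and 62.5 CPM with vehicle. For nonspecific siRNA the values were 92.0, 96.6 and 85.2 CPM with DHT, against 54.1, 67.8 and 63.2 CPM with vehicle. PFKFB4 groups were separate, with rises of log2 0.67 ± 0.09 under paxillin siRNA (adjusted p = 1.4e-05) and 0.56 ± 0.09 under nonspecific siRNA (adjusted p = 0.00012). PFKFB2 had 66.7, 70.6 and 75.2 CPM with DHT and paxillin siRNA, against 47.6, 47.1 and 48.5 CPM with vehicle. Its counterparts under nonspecific siRNA were 63.2, 60.1 and 62.2 CPM with DHT, against 41.2, 46.1 and 44.0 CPM with vehicle. PFKFB2 rose by 0.57 ± 0.06 under paxillin siRNA (adjusted p = 8.6e-07) and by 0.49 ± 0.06 under nonspecific siRNA (adjusted p = 6.4e-06), with no overlap. PFKFB3, the form with the strongest kinase side, had log2 fold changes of 0.32 ± 0.17 and 0.33 ± 0.16, which did not pass the test (adjusted p = 0.15 under paxillin siRNA and 0.12 under nonspecific siRNA). With replicate number as a block, PFKFB3 passed in both (adjusted p = 0.0099 and 0.0098).

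Of the enzymes from aldolase to pyruvate kinase, PGK1, PGAM1 and ENO1 rose with DHT under both siRNAs. PGK1, which makes the first ATP of the pathway (chrX:77910739-78129296), had 1624, 1544 and 1255 CPM with DHT and paxillin siRNA, against 1108, 1165 and 944 CPM with vehicle. In the nonspecific siRNA groups it had 1838, 1553 and 1296 CPM with DHT, against 1072, 1192 and 1003 CPM with vehicle. PGK1 groups did not overlap, with rises of log2 0.46 ± 0.12 and 0.52 ± 0.12 (adjusted p = 0.0053 under paxillin siRNA and 0.0019 under nonspecific siRNA). PGAM1, a phosphoglycerate mutase, rose by 0.29 ± 0.08 and 0.32 ± 0.08 (adjusted p = 0.0063 and 0.0032). ENO1, the main enolase, rose by 0.28 ± 0.08 and 0.33 ± 0.08 (adjusted p = 0.0074 and 0.0025) under paxillin and nonspecific siRNA. ENO2, the neuronal enolase, fell by 0.35 ± 0.12 under paxillin siRNA and by 0.35 ± 0.13 under nonspecific siRNA (adjusted p = 0.033 and 0.036). ALDOC, an aldolase, rose under paxillin siRNA by 0.29 ± 0.10 (adjusted p = 0.029), and TPI1, triosephosphate isomerase, rose under nonspecific siRNA by 0.31 ± 0.09 (adjusted p = 0.0081). GAPDH (chr12:6533927-6538374), which oxidises glyceraldehyde 3-phosphate, had 5062, 4889 and 4293 CPM with DHT and paxillin siRNA, against 4814, 4774 and 4234 CPM with vehicle. With nonspecific siRNA GAPDH had 5728, 5428 and 5139 CPM with DHT, against 4698, 5358 and 5262 CPM with vehicle. Its groups overlapped under both siRNAs, and the 95% intervals of its log2 fold change were -0.14 to 0.23 and -0.09 to 0.27. PKM, the pyruvate kinase of most tissues, had intervals of -0.11 to 0.24 under paxillin siRNA and -0.07 to 0.29 under nonspecific siRNA (adjusted p = 0.60 and 0.31). ALDOA, the most abundant aldolase, passed the test only with the replicate block (adjusted p = 0.013 and 0.0051, against 0.12 and 0.074 without it) or with a few other settings.

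Both subunits of lactate dehydrogenase rose. LDHA, the subunit of the pyruvate-reducing muscle form (chr11:18394388-18408425), had 2187, 2252 and 1881 CPM with DHT and paxillin siRNA, against 1477, 1680 and 1407 CPM with vehicle. Nonspecific siRNA gave LDHA values of 2274, 2354 and 2088 CPM with DHT, against 1421, 1931 and 1606 CPM with vehicle. These groups did not overlap, and LDHA rose by log2 0.47 ± 0.10 under paxillin siRNA (adjusted p = 0.0016) and by 0.44 ± 0.10 under nonspecific siRNA (adjusted p = 0.0026). LDHB, the subunit of the heart form (chr12:21635342-21757857), had 457, 384 and 298 CPM with DHT and paxillin siRNA, against 312, 273 and 228 CPM with vehicle. Under nonspecific siRNA LDHB had 660.2, 616 and 549.5 CPM with DHT, against 419.5, 443.5 and 425 CPM with vehicle. Paxillin DHT replicate 3 lay below paxillin vehicle replicate 1, so those groups overlapped, while the nonspecific groups did not. LDHB rose by 0.49 ± 0.12 under paxillin siRNA and 0.50 ± 0.12 under nonspecific siRNA (adjusted p = 0.0047 and 0.0034).

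**Figure D2:**
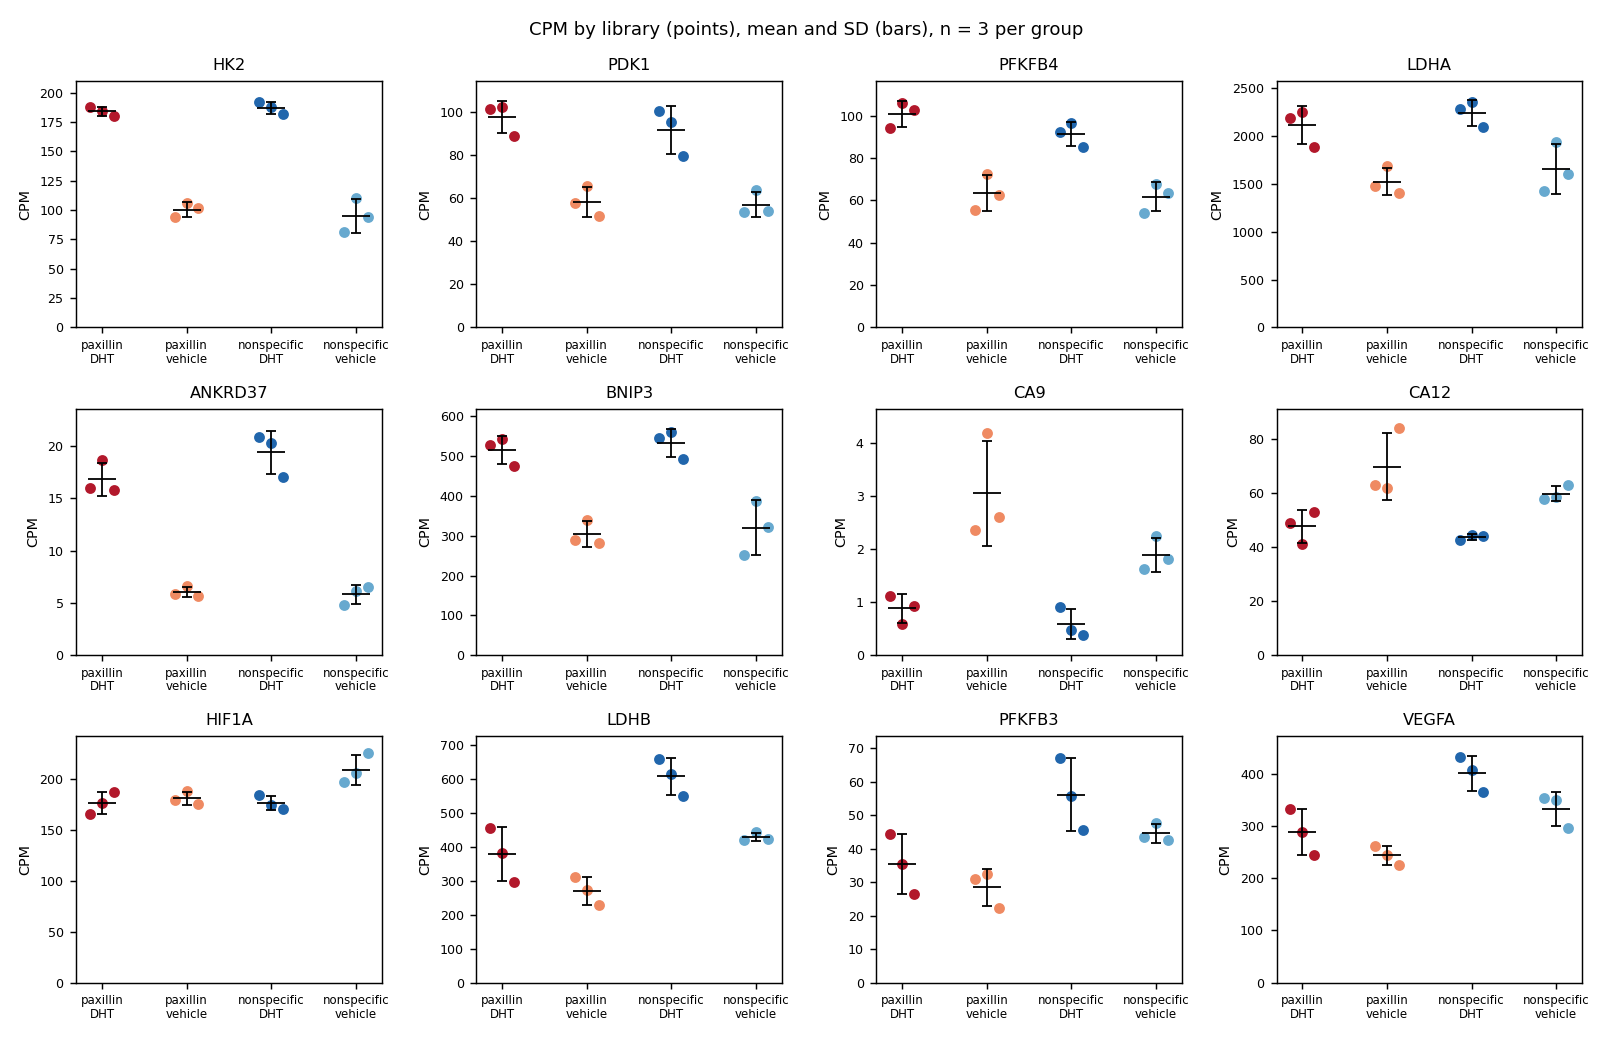
CPM of 12 members (panels, y axis from 0) in each library (points) of the 4 groups (x axis), with the mean and SD of 3 libraries as black bars. HK2, PDK1, PFKFB4, LDHA, ANKRD37 and BNIP3 were higher with DHT under both siRNAs, CA9 and CA12 were lower with DHT, and LDHB, PFKFB3 and VEGFA were lower with paxillin siRNA in both treatments.

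ANKRD37, an ankyrin repeat gene known as a HIF-1 target (chr4:185396021-185400628), showed the largest rise of the members. It had 15.98, 18.6 and 15.8 CPM with DHT and paxillin siRNA, against 5.88, 6.56 and 5.61 CPM with vehicle. Under nonspecific siRNA it had 20.8, 20.3 and 17.1 CPM with DHT, against 4.81, 6.16 and 6.498 CPM with vehicle. Every DHT library was more than 2-fold above every vehicle library of the same siRNA, and ANKRD37 rose 2.79-fold under paxillin siRNA (log2 1.48 ± 0.12, adjusted p = 2e-08) and 3.26-fold under nonspecific siRNA (log2 1.70 ± 0.13, adjusted p = 5.3e-09). BNIP3, which directs the removal of mitochondria (chr10:131966455-131982013), had 529, 542 and 476 CPM with DHT and paxillin siRNA, against 289.7, 341 and 281 CPM with vehicle. In nonspecific siRNA cells it had 547, 560.2 and 494 CPM with DHT, against 251, 388 and 322 CPM with vehicle. BNIP3 groups did not overlap, with rises of log2 0.76 ± 0.12 and 0.73 ± 0.12 (adjusted p = 4.3e-05 under paxillin siRNA and 6.3e-05 under nonspecific siRNA). PDK1, a pyruvate dehydrogenase kinase (chr2:172555373-172608669), had 101, 102 and 88.8 CPM with DHT and paxillin siRNA, against 57.5, 65.4 and 51.6 CPM with vehicle. For nonspecific siRNA PDK1 had 100.4, 95.3 and 79.2 CPM with DHT, against 53.3, 63.5 and 53.9 CPM with vehicle. PDK1 groups were separate, and it rose by 0.74 ± 0.10 under paxillin siRNA (adjusted p = 9e-06) and by 0.68 ± 0.10 under nonspecific siRNA (adjusted p = 2.8e-05). PDK3, a kinase of the same family, rose by 0.37 ± 0.08 under paxillin siRNA and 0.36 ± 0.08 under nonspecific siRNA (adjusted p = 0.0015 and 0.0020). P4HA1, a subunit of the collagen prolyl 4-hydroxylase, rose by 0.43 ± 0.07 and 0.33 ± 0.07 (adjusted p = 4.6e-05 and 0.00058), while P4HA2 had log2 fold changes of -0.03 and 0.09 (adjusted p = 0.85 and 0.48).

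The carbonic anhydrases, which help to hold the pH of cells that export acid, moved the other way. CA9, a classical marker of hypoxia (chr9:35673856-35681159), had 34, 15 and 24 counts with DHT and paxillin siRNA, against 72, 115 and 72 counts with vehicle. Under nonspecific siRNA it had 21, 11 and 10 counts with DHT, against 20, 58 and 48 counts with vehicle, the 20 counts coming from the shallowest library. In CPM these were 1.11, 0.590 and 0.932 against 2.37, 4.19 and 2.61 under paxillin siRNA, and 0.899, 0.479 and 0.375 against 1.63, 2.25 and 1.80 under nonspecific siRNA. CA9 groups did not overlap in CPM, and CA9 was 3.42-fold lower under paxillin siRNA (log2 -1.77 ± 0.30, adjusted p = 0.00015) and 3.31-fold lower under nonspecific siRNA (log2 -1.73 ± 0.35, adjusted p = 0.00076). CA12 had 48.8, 40.9 and 52.8 CPM with DHT and paxillin siRNA, against 63.0, 61.9 and 83.8 CPM with vehicle. The nonspecific siRNA libraries held 42.5, 44.5 and 43.9 CPM of CA12 with DHT, against 57.7, 58.4 and 63.0 CPM with vehicle. CA12 groups were separate, and it fell by 0.55 ± 0.10 under paxillin siRNA and by 0.45 ± 0.11 under nonspecific siRNA (adjusted p = 0.00035 and 0.0021). Thus members that are known as HIF targets were found among both the largest rises and the largest falls with DHT. VEGFA, the angiogenic growth factor, rose under nonspecific siRNA by 0.27 ± 0.10 (adjusted p = 0.038) and had a log2 fold change of 0.24 ± 0.10 under paxillin siRNA (adjusted p = 0.062, or 0.0013 with the replicate block).

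Of the genes of the HIF subunits and their hydroxylases, HIF1A, EPAS1 and EGLN1 were called with DHT under 1 siRNA each and EGLN3 under neither. HIF1A (chr14:61695513-61748259) had 165, 176 and 187 CPM with DHT and paxillin siRNA, against 179, 188 and 176 CPM with vehicle. With nonspecific siRNA HIF1A had 184, 174 and 170.1 CPM with DHT, against 196, 206 and 225 CPM with vehicle. Its groups overlapped under paxillin siRNA, with a log2 fold change of -0.04 ± 0.07 (adjusted p = 0.67). Under nonspecific siRNA they were separate, and HIF1A fell by 0.25 ± 0.07 (adjusted p = 0.0056). EPAS1 had 2.13, 2.16 and 1.79 CPM with DHT and paxillin siRNA, against 2.63, 2.52 and 3.33 CPM with vehicle. Under nonspecific siRNA EPAS1 had 2.78, 2.57 and 2.06 CPM with DHT, against 3.42, 3.64 and 5.18 CPM with vehicle, replicate 3 standing highest. EPAS1 fell under nonspecific siRNA by 0.75 ± 0.20 (adjusted p = 0.0063) and had a log2 fold change of -0.48 ± 0.21 under paxillin siRNA (adjusted p = 0.078). EGLN1, the main HIF prolyl hydroxylase, rose under paxillin siRNA by 0.46 ± 0.09 (adjusted p = 0.00036) and had a log2 fold change of 0.21 ± 0.09 under nonspecific siRNA (adjusted p = 0.066, or 0.0064 with the replicate block). EGLN3, a hypoxia-inducible hydroxylase of the same family, had log2 fold changes of -0.27 under both, which did not pass the test (adjusted p = 0.16 each). In bulk RNA, fewer cells expressing a gene and less RNA per cell cannot be told apart.

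Across the DHT comparisons, 15 members rose under both siRNAs, 4 fell under both (PFKM, ENO2, CA9 and CA12) and 7 were called under neither. Of all tested genes, 38% were called under paxillin siRNA and 40.5% under nonspecific siRNA. The share called under both was not computed. The comparisons share no library, but they came from a single fit of all libraries. Libraries with the same replicate number also deviated together, so the comparisons are not independent. PFKL, TPI1 and VEGFA were called higher under nonspecific siRNA alone, and ALDOC and EGLN1 under paxillin siRNA alone. HIF1A and EPAS1 were called lower under nonspecific siRNA alone. The difference itself was tested as the interaction, the DHT log2 fold change under paxillin siRNA minus that under nonspecific siRNA. No member was called by edgeR, DESeq2 or limma-voom, and 0.0496% of all tested genes were called by edgeR, 0.0372% with a positive and 0.0124% with a negative difference. The replicate block called 97 genes for the interaction, against 8 without it, and again no member. Before adjustment, 1 member had a p below 0.05. This was HIF1A, with a difference of 0.21 (95% interval 0.01 to 0.40, edgeR adjusted p = 0.52). EGLN1 differed by 0.25 (95% interval -0.01 to 0.51, adjusted p = 0.59). For HK2 the interval of the difference was -0.34 to 0.15, for LDHA -0.28 to 0.34, for ANKRD37 -0.59 to 0.14 and for CA9 -1.12 to 1.03. These intervals include no difference, and that of CA9 would also include a 2-fold one.

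Several of the DHT calls were lost when a single library was left out, for some genes with any of several libraries. For PFKM the call was lost without any 1 of 5 libraries under paxillin siRNA (paxillin DHT replicates 2 and 3, paxillin vehicle replicates 1 and 2, nonspecific DHT replicate 2), with adjusted p up to 0.12. Under nonspecific siRNA it was lost without any 1 of 10 libraries, that is all but paxillin DHT replicate 3 and nonspecific vehicle replicate 3 (up to 0.18), and it was lost in both without the filter on low counts. ENO2 lost its call without paxillin DHT replicate 1 or 3 or any paxillin vehicle library (up to 0.13). Under nonspecific siRNA ENO2 lost it without nonspecific DHT replicate 2 or 3 or nonspecific vehicle replicate 1 or 2 (up to 0.21), with a log2 fold change of -0.19 without nonspecific DHT replicate 3. ALDOC lost its rise without paxillin DHT replicate 1 or 2 or paxillin vehicle replicate 3 (up to 0.15). VEGFA lost its rise without nonspecific DHT replicate 1 or 2 or nonspecific vehicle replicate 3 (up to 0.18), and the fall of EPAS1 was lost without nonspecific vehicle replicate 3 (log2 -0.52, adjusted p = 0.069). In the other direction, ALDOA, PFKFB3, TPI1 and VEGFA passed under paxillin siRNA without paxillin DHT replicate 3 (adjusted p = 0.036, 0.021, 0.028 and 0.0091), and TPI1 also without nonspecific vehicle replicate 1. Under nonspecific siRNA, ALDOA, ALDOC and PFKFB3 passed without nonspecific DHT replicate 3, ALDOA and ALDOC also without paxillin DHT replicate 3, and ALDOC also without paxillin vehicle replicate 3. EGLN3 passed there without nonspecific DHT replicate 1, and EGLN1 without nonspecific vehicle replicate 2 or paxillin DHT replicate 1. The lowest adjusted p among these was 0.036 for ALDOA, 0.014 for ALDOC, 0.039 for PFKFB3, 0.0035 for EGLN3 and 0.041 for EGLN1. With the replicate block, TPI1 passed under paxillin siRNA (adjusted p = 0.0090) and ALDOC under nonspecific siRNA (0.0016). TPI1 also passed under paxillin siRNA in DESeq2 (adjusted p = 0.040) and limma-voom (0.049).

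The next comparisons asked how paxillin siRNA changed these genes within each treatment. LDHB, PFKFB3 and VEGFA fell with paxillin siRNA in both DHT and vehicle. The other calls were each made in 1 treatment. PFKFB2 and EGLN1 rose in DHT, while in vehicle HK1 rose and HIF1A and P4HA1 fell. In DHT, 2 of the 33 members rose and 3 fell, where 13.3% of all tested genes were called, 6.34% higher and 7% lower. In vehicle, 1 member rose and 5 fell, where 20.5% of all tested genes were called, 10.7% higher and 9.78% lower. The median log2 fold change of the members was -0.07 in DHT and -0.05 in vehicle, beside 0.002 and -0.005 over all genes. The siRNA groups did not overlap for 7 of 33 members in DHT, beside 32% of all tested genes, and for 10 in vehicle, beside 35.9%. With the replicate block, 2 members rose and 6 fell in DHT, and 2 rose and 8 fell in vehicle, where 3486 and 4557 of all genes were called, against 2149 and 3303 without it.

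**Figure D3:**
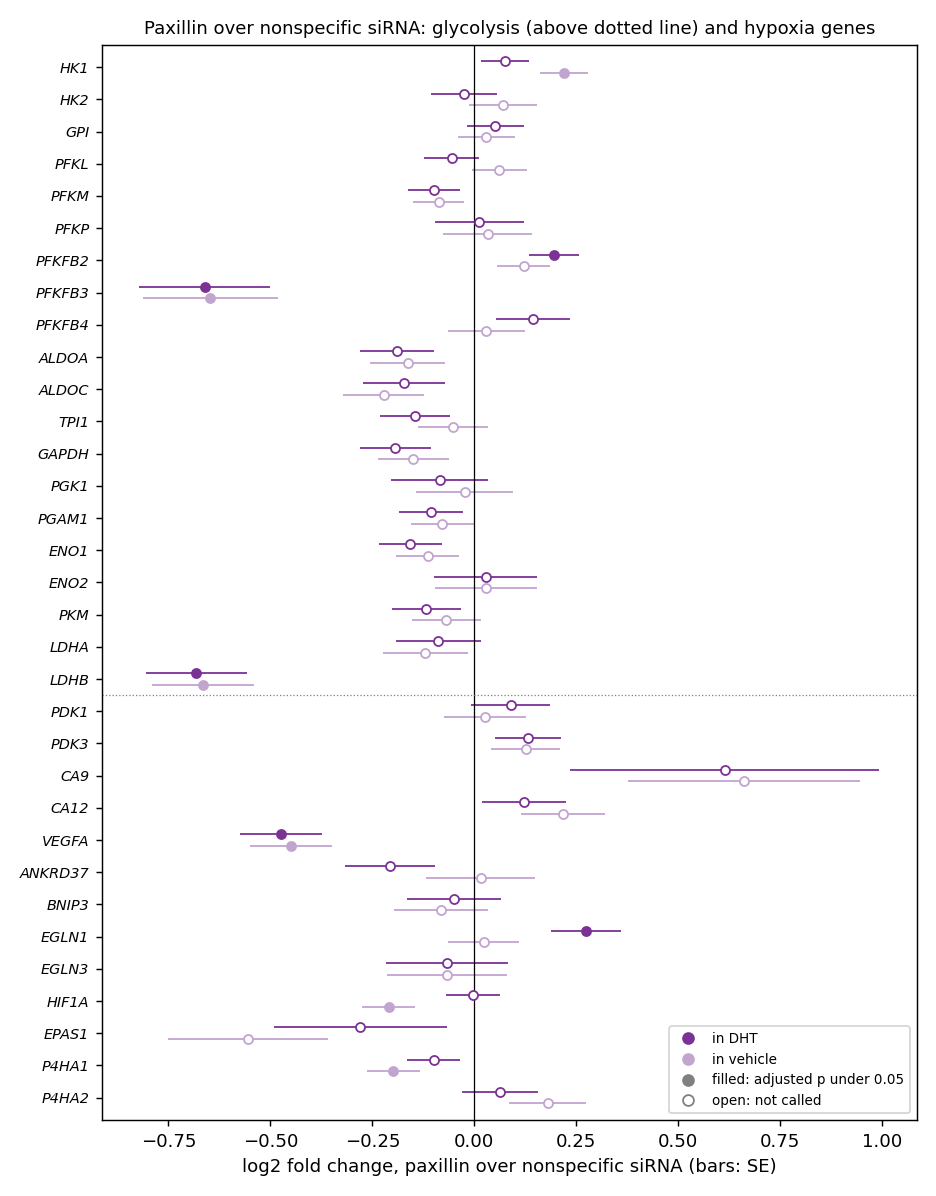
Log2 fold change of paxillin over nonspecific siRNA (x axis, bars show the SE) for the 33 tested members (rows, glycolysis above the dotted line), in DHT (dark purple) and vehicle (light purple), with filled points for adjusted p under 0.05. LDHB at -0.68 and -0.67, PFKFB3 at -0.66 and -0.65 and VEGFA at -0.47 and -0.45 are the filled points farthest left in DHT and vehicle, and the open EPAS1 point in vehicle lies at -0.55. The open CA9 points on the right carry the widest bars.

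LDHB fell by log2 0.68 ± 0.12 in DHT (1.60-fold lower, adjusted p = 0.0015) and by 0.67 ± 0.12 in vehicle (1.59-fold lower, adjusted p = 0.0012). From the values by library given above, all paxillin siRNA libraries lay below all nonspecific libraries of the same treatment. Set against the nonspecific library with the same number, LDHB stood at log2 ratios of -0.53, -0.68 and -0.88 in DHT and -0.43, -0.70 and -0.90 in vehicle. LDHA, in contrast, had log2 fold changes of -0.09 ± 0.10 in DHT and -0.12 ± 0.10 in vehicle (adjusted p = 0.63 and 0.46). Per exonic kilobase, LDHA exceeded LDHB by 2.72 ± 0.378-fold in paxillin DHT and 2.73 ± 0.395-fold in paxillin vehicle, against 1.77 ± 0.102-fold in nonspecific DHT and 1.84 ± 0.234-fold in nonspecific vehicle (SD, n = 3 each). The lowest paxillin siRNA ratio, 2.28, was above the highest nonspecific ratio, 2.09.

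PFKFB3 (chr10:6144934-6254644) had 44.5, 35.4 and 26.4 CPM with paxillin siRNA in DHT, against 67.2, 55.8 and 45.6 CPM with nonspecific siRNA. In vehicle it had 30.9, 32.6 and 22.2 CPM with paxillin siRNA, against 43.6, 47.8 and 42.6 CPM with nonspecific siRNA. The groups did not overlap in either treatment. PFKFB3 was 1.58-fold lower in DHT (log2 -0.66 ± 0.16, adjusted p = 0.011) and 1.57-fold lower in vehicle (log2 -0.65 ± 0.17, adjusted p = 0.010). The call was lost in DHT without paxillin DHT replicate 3 or nonspecific DHT replicate 1 (adjusted p up to 0.064), and in vehicle without paxillin vehicle replicate 3 or nonspecific vehicle replicate 2 (up to 0.063). Its relative PFKFB4 had log2 fold changes of 0.14 in DHT and 0.03 in vehicle (adjusted p = 0.33 and 0.86). PFKFB4 per kilobase stood at 3 ± 0.880 times PFKFB3 in paxillin DHT and 2.28 ± 0.514 times in paxillin vehicle, against 1.66 ± 0.258 times in nonspecific DHT and 1.38 ± 0.126 times in nonspecific vehicle (SD, n = 3 each).

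VEGFA (chr6:43770184-43786487) had 333, 288 and 245 CPM with paxillin siRNA in DHT, against 432, 406 and 366 CPM with nonspecific siRNA. In vehicle VEGFA had 261, 244 and 226 CPM with paxillin siRNA, against 354, 349 and 295 CPM with nonspecific siRNA. The groups were separate in both treatments, and VEGFA was 1.39-fold lower in DHT (log2 -0.47 ± 0.10, adjusted p = 0.0042) and 1.37-fold lower in vehicle (log2 -0.45 ± 0.10, adjusted p = 0.0042). These calls, and those of LDHB, were kept without any single library.

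**Figure D4:**
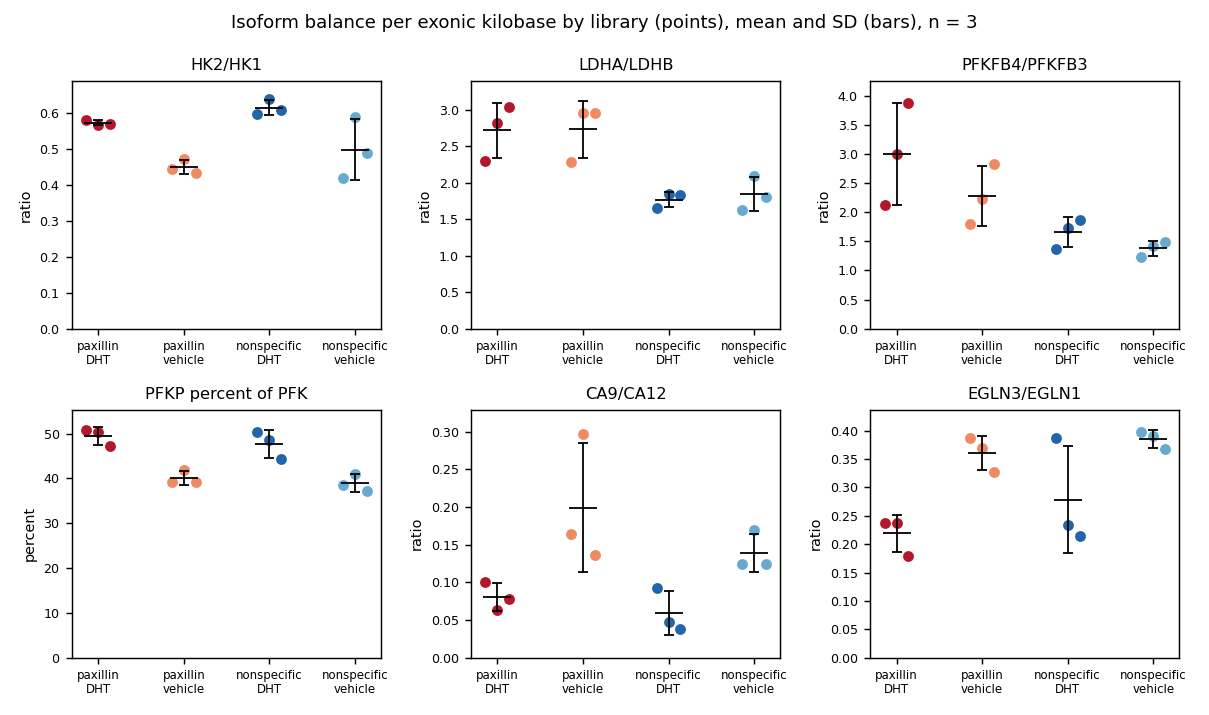
Balance between related members per exonic kilobase (y axes, ratio or percent, from 0) in each library (points) of the 4 groups (x axis), with mean and SD of 3 libraries as black bars. LDHA/LDHB was 2.28 to 3.04 in paxillin siRNA libraries and 1.63 to 2.09 in nonspecific ones, while the PFKP share and HK2/HK1 had higher means with DHT under both siRNAs.

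The remaining calls between siRNAs were small. In DHT, PFKFB2 rose by log2 0.20 ± 0.06 (adjusted p = 0.042) and EGLN1 rose by 0.27 ± 0.09 (adjusted p = 0.044). EGLN1 had 52.3, 59.5 and 64.4 CPM with paxillin siRNA, against 45.6, 49.9 and 50.1 CPM with nonspecific siRNA, without overlap. In vehicle, HK1 rose by 0.22 ± 0.06 (adjusted p = 0.014), HIF1A fell by 0.21 ± 0.07 (adjusted p = 0.030) and P4HA1 fell by 0.20 ± 0.07 (adjusted p = 0.041), each without overlap. HK1 lost its call without paxillin vehicle replicate 3 or nonspecific vehicle replicate 2 (adjusted p up to 0.066). HIF1A lost it without any paxillin vehicle library or nonspecific vehicle replicate 2 or 3 (up to 0.17). P4HA1 lost it without any 1 of 7 libraries, namely paxillin DHT replicate 2, paxillin vehicle replicates 2 and 3, nonspecific DHT replicates 2 and 3, and nonspecific vehicle replicates 1 and 2 (up to 0.21). EGLN1 lost it without paxillin DHT replicate 2 or 3, paxillin vehicle replicate 2, any nonspecific DHT library or nonspecific vehicle replicate 3 (up to 0.21). PFKFB2 lost it without any 1 of 9 libraries, all but paxillin DHT replicate 1 and nonspecific vehicle replicates 1 and 2 (up to 0.20), and both PFKFB2 and EGLN1 missed the threshold at 0.058 with upper-quartile scaling. Without the filter on low counts, or with only the compared groups fitted, PFKFB2, HIF1A and P4HA1 also missed it. EPAS1 in vehicle had a log2 fold change of -0.55 ± 0.20 (adjusted p = 0.054). It passed without nonspecific vehicle replicate 1 (0.041) and in limma-voom (0.043). CA9 in vehicle had a log2 fold change of 0.66 ± 0.28 (adjusted p = 0.11). The replicate block added calls in DHT for ALDOA, ALDOC and GAPDH, all lower with paxillin siRNA (adjusted p = 0.020, 0.031 and 0.042). In vehicle it added ALDOA, ALDOC and EPAS1, all lower, and CA12, higher (adjusted p = 0.035, 0.0041, 0.036 and 0.037).

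Genes outside the 34 were grouped in 4 lists of the same pathways. The lists were chosen with earlier results of these data known, so their counts beside the shares over all genes are descriptive. Of 28 tested other hypoxia-inducible genes, 17 rose and 3 fell with DHT under paxillin siRNA, and 16 rose and 4 fell under nonspecific siRNA. Over all tested genes, 20.1% were called higher and 17.9% lower under paxillin siRNA, and 21.6% higher and 18.9% lower under nonspecific siRNA. The largest rise among them was that of LOX, the collagen cross-linking lysyl oxidase, at 17.4 ± 1.96 CPM with DHT against 1.34 ± 0.240 CPM with vehicle under paxillin siRNA, and 21.9 ± 1.15 CPM against 2.66 ± 0.386 CPM under nonspecific siRNA (SD, n = 3 each). LOX rose by log2 3.69 ± 0.15 under paxillin siRNA and 3.07 ± 0.14 under nonspecific siRNA (adjusted p = 1.2e-12 and 8.1e-12), and in vehicle it was lower with paxillin siRNA (log2 -0.96 ± 0.18, adjusted p = 0.0014). In DHT, LOX had a log2 fold change of -0.33 ± 0.11 with paxillin siRNA (adjusted p = 0.052), which passed with the replicate block (0.0080), limma-voom (0.023), the compared groups alone (0.034) and upper-quartile scaling (0.047). STC2, a stanniocalcin, fell with paxillin siRNA by 0.44 ± 0.09 in DHT and by 0.35 ± 0.09 in vehicle (adjusted p = 0.0032 and 0.0085), the fall in vehicle being lost without paxillin vehicle replicate 3 (adjusted p = 0.057). In all, 1 of the 28 rose and 4 fell with paxillin siRNA in DHT, and 1 rose and 7 fell in vehicle, where 6.34% and 10.7% of all tested genes were called higher and 7% and 9.78% lower in DHT and vehicle.

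Of 19 tested genes of pyruvate entry and the pentose phosphate pathway, 8 rose and 3 fell with DHT under paxillin siRNA, and 10 rose and 3 fell under nonspecific siRNA, beside 38% and 40.5% of all tested genes called in either direction. MPC2, a subunit of the mitochondrial pyruvate carrier, had 562 ± 6.90 CPM with DHT against 182 ± 11.2 CPM with vehicle under paxillin siRNA, and 556 ± 2.90 CPM against 194 ± 12.8 CPM under nonspecific siRNA (SD, n = 3 each). MPC2 rose by log2 1.63 ± 0.07 under paxillin siRNA and 1.52 ± 0.07 under nonspecific siRNA (adjusted p = 1.4e-12 and 3.7e-12). RPIA, of the pentose phosphate pathway, rose by 0.94 ± 0.15 under nonspecific siRNA (adjusted p = 6.5e-05). Under paxillin siRNA its log2 fold change was 0.34 ± 0.14 (adjusted p = 0.067, or 0.0037 with the replicate block). The interaction of RPIA was -0.60 ± 0.21 (edgeR adjusted p = 0.43). It passed with the replicate block (0.029) and without the filter on low counts (0.014). The pyruvate dehydrogenase phosphatases went different ways under both siRNAs. PDP2 rose by 0.61 ± 0.06 under paxillin siRNA and 0.65 ± 0.06 under nonspecific siRNA (adjusted p = 1.2e-07 and 6.4e-08). PDP1 fell by 0.85 ± 0.12 and 0.37 ± 0.12 (adjusted p = 1.6e-05 and 0.022), and the fall under nonspecific siRNA was lost without nonspecific DHT replicate 3 or nonspecific vehicle replicate 2 (adjusted p up to 0.11). PDPR, a regulatory subunit of these phosphatases, fell by 0.37 ± 0.06 under paxillin siRNA and by 0.45 ± 0.07 under nonspecific siRNA (adjusted p = 0.00018 and 2.6e-05). With paxillin siRNA, 4 of the 19 rose and 1 fell in DHT, and 3 rose and 1 fell in vehicle, beside 13.3% and 20.5% of all tested genes called in either direction. PDHA1, a subunit of pyruvate dehydrogenase, rose with paxillin siRNA by 0.22 ± 0.06 in DHT and by 0.36 ± 0.06 in vehicle (adjusted p = 0.025 and 0.00079). The rise in DHT was lost without paxillin DHT replicate 2 or 3 or any nonspecific DHT library (adjusted p up to 0.12).

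Of 15 tested HIF regulators, 5 rose and 3 fell with DHT under paxillin siRNA, and 4 rose and 4 fell under nonspecific siRNA, beside 38% and 40.5% of all tested genes called. ARNT, the partner of the HIF α subunits, fell by 0.34 ± 0.07 under paxillin siRNA and by 0.43 ± 0.07 under nonspecific siRNA (adjusted p = 0.00092 and 0.00013). ARNT2, its relative, fell by 0.62 ± 0.13 and 0.93 ± 0.14 (adjusted p = 0.0010 and 2.7e-05). RBX1 rose by 0.23 ± 0.07 under paxillin siRNA and by 0.34 ± 0.07 under nonspecific siRNA (adjusted p = 0.011 and 0.00064). HSP90AA1 rose by 0.28 ± 0.10 and 0.34 ± 0.10 (adjusted p = 0.040 and 0.013). CITED2 also rose under both, and CITED4 under paxillin siRNA alone (adjusted p = 0.045). Leaving out a single library could lose each of these rises, except RBX1 under nonspecific siRNA and CITED2 under paxillin siRNA. With paxillin siRNA edgeR called no HIF regulator in DHT, where 3 had a p below 0.05 before adjustment, and 4 fell in vehicle, beside 13.3% and 20.5% of all tested genes called. Of 20 other glycolytic isoforms and bypass enzymes, 8 passed the filter on low counts. Under paxillin siRNA 4 of these rose with DHT and 1 fell, and under nonspecific siRNA 1 rose and 1 fell, beside the same 38% and 40.5% of all tested genes. ENO3, the muscle enolase, was the one that fell in each, by 0.42 ± 0.10 and 0.45 ± 0.11 (adjusted p = 0.0036 and 0.0024). With paxillin siRNA BPGM, which makes 2,3-bisphosphoglycerate, fell by 0.29 ± 0.08 in DHT and by 0.39 ± 0.08 in vehicle (adjusted p = 0.023 and 0.0028). The fall in DHT was lost without paxillin DHT replicate 2 or 3 or any nonspecific DHT library (adjusted p up to 0.11).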

How the data were processed

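The authors deposited raw counts per gene symbol for 12 libraries, 3 in each of 4 groups. Per the submitters' processing notes, Trimmomatic 0.36, STAR 2.5.2b and featureCounts of Subread 1.5.0p3 were used with GRCh38. The kit was stranded per the labels, while the sources used here do not give the annotation release or the strand setting of the counting. Members and lists were chosen with earlier results of these data known.

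In R 4.3.3, edgeR 4.0.16 filtered genes (filterByExpr, minimum count 10, minimum total 15), scaled libraries by TMM and fitted a quasi-likelihood model of 4 group means, with Benjamini-Hochberg adjustment over 16115 genes and an SE derived from the F statistic. CPM were computed from the deposited counts and TMM-scaled totals. The pipeline was tested on simulated data. Values by library are given for members called with an absolute log2 fold change of at least 0.5 and for HIF1A, EPAS1, GAPDH, PGK1, LDHA and, chosen after its values were seen, VEGFA and EGLN1. From each list at most the 2 largest called rises and 2 largest called falls per comparison were eligible to be named. Replicates differed beyond sampling noise (chi-square per degree of freedom 6.19 to 18.7). Libraries with the same replicate number deviated together, with correlations of 0.14 to 0.48 in 18 pairs over 10699 genes. In 36 other pairs the correlations were -0.43 to 0.21. Deviations were taken from the mean of each group. Positive correlations in same-number pairs therefore force lower ones elsewhere, so the other pairs add no separate evidence. From the same-number pairs, the numbers appear to pair the samples, which the labels do not state. The main calls ignored this pairing, and the replicate block, which uses it, was an alternative. Pseudogene rows held at most 2.1% of a member's counts. Alternatives were other scalings, no filter, DESeq2 1.42.0, limma-voom (limma 3.58.1), the replicate block, only the compared groups, an adjusted p under 0.01, pseudogene rows added, and each library left out. Promoters came from RefSeq, and coordinates and lengths from GENCODE 29.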

Additional observations from a re-analysis of the deposited data

Results flagged for a closer look

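CITED2, a HIF regulator that competes with HIF-1α for its coactivators, was singled out because its DHT response differed between the siRNAs by the test of that difference. It had 53.1, 56.2 and 54.7 CPM in paxillin DHT, against 32.9, 34.3 and 31.1 CPM in paxillin vehicle. Under nonspecific siRNA it had 48.2, 49.4 and 51.3 CPM with DHT, against 45.3, 40.3 and 44.9 CPM with vehicle. The groups did not overlap in either comparison, and the paxillin vehicle libraries were the lowest of all 12. DHT raised CITED2 by log2 0.74 ± 0.07 under paxillin siRNA and by 0.19 ± 0.07 under nonspecific siRNA, a difference of 0.55 ± 0.09 (edgeR quasi-likelihood test, Benjamini-Hochberg adjusted p = 0.044). The rise under nonspecific siRNA (adjusted p = 0.025) was lost without nonspecific DHT replicate 2 or 3 or nonspecific vehicle replicate 2 (up to 0.13), with upper-quartile scaling (0.14), without the filter on low counts (0.057) and with only the compared groups (0.054). In vehicle, paxillin siRNA lowered it by 0.41 ± 0.07 (adjusted p = 0.00041). The call of the difference was lost without any 1 of 10 of the 12 libraries, with adjusted p of 0.040 to 0.19 over all 12 omissions, and in limma-voom (0.062), and it was kept with the replicate block (0.0057).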

How the results depend on the processing

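The 33 members gave 165 results, which with the alternatives made 3431 outcomes. A call was lost in 91 outcomes, from 15 of the results, and gained in 46, from 17 of them, and no called result turned its direction. The RLE scaling and added pseudogene rows changed none of the counts of members.

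At an adjusted p under 0.01 in place of 0.05, all genes called for paxillin siRNA numbered 954 in DHT (2149 at 0.05) and 1651 in vehicle (3303 at 0.05). Members that rose with paxillin siRNA numbered 0 in DHT and 0 in vehicle, members that fell with it 2 in each, and members that fell with DHT 2 under paxillin siRNA and 4 under nonspecific siRNA. The interaction had 0 called genes.

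With the replicate block, paxillin siRNA changed 3486 genes in DHT, with 6 members lower. In vehicle 2 members were higher and 8 lower, and the interaction had 97 called genes. The block changed the call of no member other than those given with it above.

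With upper-quartile scaling 0 members, and with no filter or only the compared groups 1 member, rose with paxillin siRNA in DHT (2 as reported). In vehicle, 2 rose without the filter, and 3 fell when only the compared groups were fitted (5 as reported). Genes called for the interaction, 8 as reported, numbered 142 with no filter, 57 in DESeq2 and 0 in limma-voom. The cause of these differences was not tested.

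Leaving out 1 library at a time gave 1178 to 2417 genes called for paxillin siRNA in DHT, the lowest without paxillin DHT replicate 3, with 0 to 2 members higher and 2 to 3 lower. In vehicle it gave 1848 to 3524 genes, the lowest without paxillin vehicle replicate 3, with 0 to 1 member higher and 2 to 5 lower. It gave 0 to 26 genes for the interaction. Members that fell with DHT numbered 2 to 4 under paxillin siRNA and 4 to 6 under nonspecific siRNA.

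Depth limits CA9, with 10 to 115 counts per library, EPAS1, with 42 to 138 counts, and ADM, which was not tested. Nonspecific vehicle replicate 1 was the shallowest library. The tests cover this single cell line, and protein levels and glucose use were not analysed here.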
